A study of Mus musculus with 8 samples.

Results

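The genes described here encode proteins of the motile cilium and the sperm tail, measured by RNA-seq in whole mouse testis. They are the rows of the deposited table annotated with the gene ontology term for the motile cilium, with an FPKM (fragments scaled by transcript length and library depth) of at least 1 in at least 2 of 8 libraries. The Ift, Bbs, Dnah, Dnaaf, Rsph, Kif, Adam, Ldh, Hspa and Psm families and Gapdhs, Eno4, Pgk2, Cetn1, Tssk6 and the Atp5 genes were left out. Of 128 rows with the term, 18 were left out by name, and 20 of the other 110 did not reach the FPKM limit. That leaves 90 members of 38163 rows, and 16702 rows of all kinds reached the same limit. The 90 rows carry 89 gene names, because Septin2 appears under 2 overlapping identifiers that can share reads and whose separate levels are therefore uncertain.

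The groups were Alkbh5-null testis at postnatal day 18 (KO P18), wild-type testis at day 18 (WT P18), Alkbh5-null testis at day 12 (KO P12) and wild-type testis at day 12 (WT P12), with 2 libraries each. ALKBH5 removes the N6-methyladenosine mark from RNA, and its role in spermatogenesis is the question the series asks. Per the series' design text, spermatocytes at day 12 are mostly in leptotene and zygotene, and at day 18 mostly in pachytene and diplotene. The null allele, the strain and whether the libraries of a group came from separate animals are not given in the sources used here, so a p-value measures only the spread between these libraries, which may be technical.

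The sperm tail is a specialised motile cilium. Its core, the axoneme, has outer doublet microtubules carrying dynein arms, a nexin-dynein regulatory complex that links the doublets, tektins and other proteins inside the microtubules, and a central pair of microtubules with its projections. Around it lie outer dense fibres and, in the principal piece, a fibrous sheath, and the membrane there holds the CatSper calcium channel. The tail is built in spermatids after meiosis, while transcription of many of its genes begins in pachytene spermatocytes.

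Total counts lay between 58417668 and 71537841 per library. The targeted gene, Alkbh5, was at 17.9 and 0.155 FPKM in KO P18 replicates 1 and 2, against 0.00985 and 9.07 FPKM in WT P18 replicates 1 and 2. It was at 0.0564 and 0.0218 FPKM in the KO P12 libraries, against 10.2 and 17.8 FPKM in the WT P12 libraries. The libraries labelled KO P18 replicate 1 and WT P18 replicate 1 thus go against their labels, whereas Alb, the serum albumin gene of hepatocytes, was at 119 and 111 FPKM in both KO P18 libraries and between 0.150 and 0.612 FPKM in the other 6. Every result that uses P18 is therefore given with and without these 2 libraries, and "the library labelled" is meant wherever a P18 group is named. Summed over 8 pachytene and diplotene markers, KO P18 had 1822 and 99.5 FPKM and WT P18 had 89.0 and 1430 FPKM, whereas KO P12 had 25.7 and 31.5 FPKM and WT P12 had 63.6 and 104 FPKM. Over 8 Sertoli cell markers, KO P18 had 288 and 717 FPKM and WT P18 had 806 and 424 FPKM, whereas KO P12 had 743 FPKM in each library and WT P12 had 620 and 586 FPKM.

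The testis held few transcripts of later or non-germ cells that also build tails or motile cilia. Over 8 round spermatid markers the summed FPKM was between 3.52 and 9.35 in every library, and Prm1, Prm2, Tnp1, Acrv1 and Catsper3 stayed under 1 FPKM in all 8. Acrv1 and Prm2 were highest in KO P18 replicate 1, at 0.759 and 0.611 FPKM, and Prm1, Tnp1 and Catsper3 were highest in P12 libraries. Of the other 3 round spermatid markers, Spaca1 was between 2.01 and 5.13 FPKM and Tssk6 between 0.403 and 1.26 FPKM. Tnp2 was at 2.93 and 0.150 FPKM in KO P18 and 0 and 2.03 FPKM in WT P18, against at most 0.396 FPKM at P12. Over 8 markers of multiciliated epithelium and efferent duct the sum was between 9.73 and 16.9, most of it from Tppp3, with Mcidas, Gmnc and Cdhr3 at or below 0.113 FPKM. Foxj1, a regulator of motile cilia in that list, was at 3.08 FPKM in KO P18 replicate 1 and between 0.530 and 1.23 FPKM in the other 7 libraries. The part of Tnp2- or Foxj1-expressing cells in the results below was not tested. The epididymal marker Crisp1 was at 36.8 FPKM in WT P18 replicate 2 and at or below 0.0946 FPKM in the other 7 libraries. Most other markers of the epididymis list were not raised in WT P18 replicate 2. Cst11 was at 0.649 FPKM there, its lowest level in all 8 libraries, and Lcn8 was at 0 FPKM. Cst8 was lower there than in any P12 library. Rnase9 was highest there, but only at 0.291 FPKM. In bulk tissue, fewer cells of a type and less RNA per cell cannot be told apart, which holds for every difference given here.

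Most tail genes were far higher in KO P18 replicate 1 and WT P18 replicate 2 than in any of the other 6 libraries. These 2 libraries stood above all the others for 75 of 90 members, against 25.6% of all genes tested, and below all the others for 6, against 41.5%. The FPKM limit itself favours this pattern, since 21 members passed it only through these 2 libraries. Among the 57 members with a mean of at least 1 FPKM over the P12 libraries, a choice that does not use P18, the pair stood above in 42, against 19.8% of 14551 genes chosen in the same way. The lower of the 2 libraries was at least 2-fold above the highest of the other 6 for 61 members (11.9% of all genes tested) and at least 10-fold above it for 34 (4.24%). Among the 57 members chosen at P12 these counts were 28 (5.5% of genes chosen in the same way) and 8 (0.57%). The ratio was 60.4 for Tcte1, 52.4 for Zbbx, 52.2 for Qrich2, 51.1 for Slc9c1 and 50.3 for Catsperz. The median member was at 22.6 and 2.25 FPKM in KO P18, 2.13 and 15.6 FPKM in WT P18, 1.25 and 1.41 FPKM in KO P12 and 1.62 and 2.76 FPKM in WT P12. Of these 2 libraries, KO P18 replicate 1 was the higher for 79 of 90 members, with a median ratio of 1.38 to WT P18 replicate 2, whereas over all genes tested it was the higher for 32.7%, with a median ratio of 0.884.

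**Figure D1:**
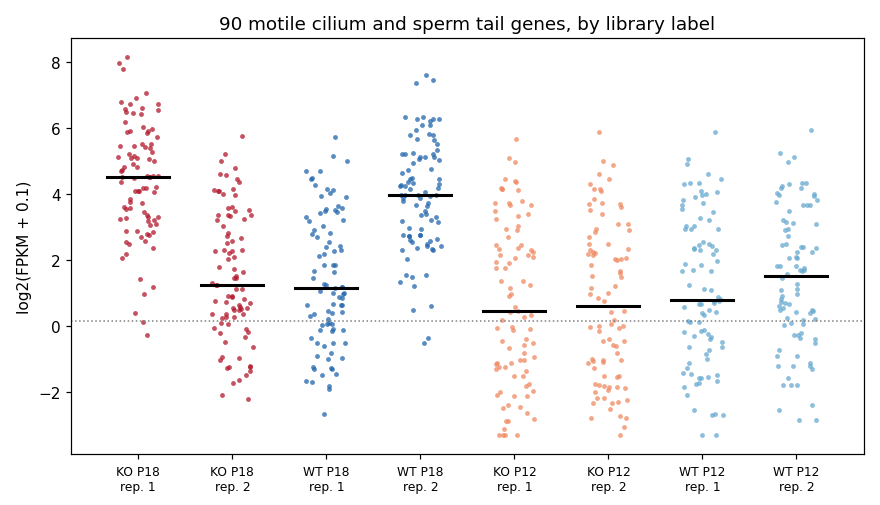
Level of each of the 90 members as log2(FPKM + 0.1) in each of 8 libraries, by library label, 1 point per gene; the black bar is the median and the dotted line marks 1 FPKM. KO P18 replicate 1 and WT P18 replicate 2 hold 88 members each at 1 FPKM or more, against 48 to 68 members in each of the other 6 libraries.

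The members just inside the limit were low everywhere. Spag4, a protein of the spermatid nuclear envelope and tail, had a second-highest FPKM of 1.01, followed by 1.71 for Cabyr, a calcium-binding protein of the fibrous sheath, and 1.78 for Klc3, a kinesin light chain. Just outside were the testis-specific kinases Tssk1 at 0.836 and Tssk4 at 0.725 and Efcab9, a calcium sensor of the CatSper complex, at 0.703. Genes of the late tail lay far below it, with a second-highest FPKM of 0.0866 for Akap4, the main anchoring protein of the fibrous sheath, and 0 for Catsper1, a pore subunit of CatSper, and for Ropn1, a ropporin. Each was highest in KO P18 replicate 1, with 172 counts for Akap4 (0.776 FPKM), 113 for Catsper1 (0.709 FPKM) and 17 for Ropn1 (0.172 FPKM). Over all 110 rows, whether or not they passed the limit, 92 and 68 were at 1 FPKM or more in KO P18, 62 and 88 in WT P18, 49 and 48 in KO P12, and 56 and 65 in WT P12.

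Beyond the term that chose them, 24 members were annotated to cilium assembly, 22 to spermatogenesis, 22 to the axoneme and 21 to flagellated sperm motility, and 8 to the acrosomal vesicle. The X chromosome, which is silenced in pachytene spermatocytes, held 1 member, Septin6 (1.11% of members, against 4.03% of genes tested).

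The central apparatus, the pair of microtubules and projections at the middle of the axoneme, had 7 members, all highest in KO P18 replicate 1 and WT P18 replicate 2. Cfap65, a projection protein, was at 97.1 and 3.94 FPKM in KO P18 and 3.02 and 80.2 FPKM in WT P18, and at 0.322 and 0.375 FPKM in KO P12 and 1.51 and 3.37 FPKM in WT P12. Spag6l was at 59.4 and 1.19 FPKM in KO P18 and 1.04 and 37.1 FPKM in WT P18, and at 0.0781 and 0.157 FPKM in KO P12 and 0.241 and 0.952 FPKM in WT P12. For both genes the KO P12 libraries were the lowest of all 8. Spef1, which bundles microtubules, varied less, with 10.8 and 4.77 FPKM in KO P18 and 4.19 and 10.03 FPKM in WT P18, and 4.91 and 5.47 FPKM in KO P12 and 3.82 and 4.04 FPKM in WT P12.

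The list of the nexin-dynein regulatory complex and the molecular ruler that sets its spacing had 14 members, and all 14 were highest in the same 2 libraries. It also holds Cfap206, and members of the regulatory complex below are the members of this list. Tcte1, a subunit of the complex, was at 43.2 and 0.200 FPKM in KO P18 and 0.162 and 15.1 FPKM in WT P18, and at 0.0881 and 0.249 FPKM in KO P12 and 0.0705 and 0.231 FPKM in WT P12. It lay near its detection limit in 6 libraries, with 14 to 51 counts. Cfap206, which docks radial spokes in ciliates, had the highest level of the list, with 132 and 2.61 FPKM in KO P18 and 2.23 and 77.5 FPKM in WT P18, and 0.522 and 0.313 FPKM in KO P12 and 0.687 and 2.07 FPKM in WT P12. Gas8, another subunit, differed least among the 14, with 16.8 and 9.89 FPKM in KO P18 and 11.2 and 15.6 FPKM in WT P18, and 10.4 and 8.34 FPKM in KO P12 and 9.13 and 9.14 FPKM in WT P12.

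The list of dynein arms and their docking held 8 members. Dnali1, a light chain of inner arms, was at 59.8 and 1.53 FPKM in KO P18 and 1.44 and 37.0 FPKM in WT P18, and between 0.360 and 1.47 FPKM in the P12 libraries. Cfap43 and Cfap44 tether inner dynein arms, and Cfap43 was at 33.6 and 1.17 FPKM in KO P18 and 1.27 and 20.4 FPKM in WT P18. Dync2h1, the heavy chain of the motor that carries cargo back down the cilium, was present throughout, with 16.6 and 4.72 FPKM in KO P18, 4.84 and 15.5 FPKM in WT P18, and 3.61 to 5.33 FPKM at P12. Among the tektins, filament proteins of the doublet microtubules, Tekt1 was at 93.9 and 2.75 FPKM in KO P18 and 2.12 and 56.0 FPKM in WT P18, and at 0.342 and 0.653 FPKM in KO P12 and 1.38 and 3.40 FPKM in WT P12. Tekt3 was at 43.5 and 0.285 FPKM in KO P18 and 0.552 and 18.8 FPKM in WT P18, and below 0.1 FPKM in all 4 P12 libraries.

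The outer parts of the tail showed the same order of libraries. Odf2 and Odf4 are proteins of the outer dense fibres. Odf2 was at 94.8 and 16.7 FPKM in KO P18 and 17.3 and 54.9 FPKM in WT P18, and at 12.99 and 13.1 FPKM in KO P12 and 14.7 and 15.8 FPKM in WT P12. Odf4 was at 104 and 3.16 FPKM in KO P18 and 1.97 and 73.2 FPKM in WT P18, and at 0.127 and 0.0486 FPKM in KO P12 and 1.49 and 3.43 FPKM in WT P12. Odf2, unlike Odf4, was thus above 10 FPKM in every library. In the fibrous sheath, Ropn1l, a ropporin-like protein that docks to anchoring proteins, had the highest level of its list, with 252 and 11.0 FPKM in KO P18 and 10.5 and 194 FPKM in WT P18, and 5.29 and 3.90 FPKM in KO P12 and 7.999 and 13.9 FPKM in WT P12. Akap3, an anchoring protein, reached only 4.42 and 0.839 FPKM in KO P18 and 0.674 and 2.42 FPKM in WT P18.

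Not all sheath genes had this pattern. Slc25a31, an ADP/ATP carrier of male germ cells, had the highest P12 level of all members and a narrow range, with 57.6 and 53.5 FPKM in KO P18 and 52.6 and 67.7 FPKM in WT P18, and 50.6 and 57.9 FPKM in KO P12 and 58.2 and 60.7 FPKM in WT P12. KO and WT libraries overlapped at P18, and at P12 both KO libraries were below both WT libraries. Cabyr was between 0.668 and 1.86 FPKM in all 8 libraries.

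The 5 members of the CatSper channel and of sperm ion transport were low at P12. Catsperg1 and Catsperg2 encode near-identical gamma subunits that can share reads, so the split between them is uncertain. Catsperg2 was at 45.3 and 2.08 FPKM in KO P18 and 2.30 and 39.6 FPKM in WT P18, and at 0.353 and 0.547 FPKM in KO P12 and 1.67 and 3.14 FPKM in WT P12. Catsperz, the zeta subunit, was at 111 and 1.38 FPKM in KO P18 and 0.942 and 76.1 FPKM in WT P18, and at 0.152 and 0.388 FPKM in KO P12 and 0.604 and 1.51 FPKM in WT P12. Slc9c1, the sodium/proton exchanger of sperm, was at or below 0.0523 FPKM in all 4 P12 libraries. Of the signalling enzymes, Adcy10, the bicarbonate-activated adenylyl cyclase of sperm, was at 10.2 and 0.417 FPKM in KO P18 and 0.423 and 4.79 FPKM in WT P18, and between 0.309 and 0.432 FPKM at P12.

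Septins, the filament proteins of the annulus between midpiece and principal piece, formed the main exception. Septin7 was at 8.92 and 12.1 FPKM in KO P18 and 10.9 and 8.79 FPKM in WT P18, and at 12.6 and 12.9 FPKM in KO P12 and 11.6 and 12.6 FPKM in WT P12. Septin6 was at 11.9 and 24.0 FPKM in KO P18 and 25.7 and 14.5 FPKM in WT P18, and between 17.6 and 20.2 FPKM at P12. In FPKM both were thus lowest in the 2 libraries where the other tail genes were highest, as were Septin4, Fopnl, Intu and Klc3. In counts scaled to library size with TMM factors and not to transcript length (CPM), this held only for Septin4 and Septin6 of these 6. These 6 genes all have uses outside the sperm tail, in other tissues' cilia, basal bodies, transport or cell division. The Sertoli cell sums above were also lowest in these 2 libraries, and the part of cell composition in these levels was not tested.

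Among the metabolic enzymes of the list, Sord, the sorbitol dehydrogenase that makes fructose, was at 285 and 15.4 FPKM in KO P18 and 15.3 and 164 FPKM in WT P18, and at 7.46 and 8.37 FPKM in KO P12 and 10.7 and 15.2 FPKM in WT P12. It had the highest FPKM of all members in KO P18 replicate 1, and Ropn1l had it in WT P18 replicate 2. Dld, a subunit of mitochondrial dehydrogenase complexes in every tissue, was between 31.9 and 38.0 FPKM in all 8 libraries.

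**Figure D2:**
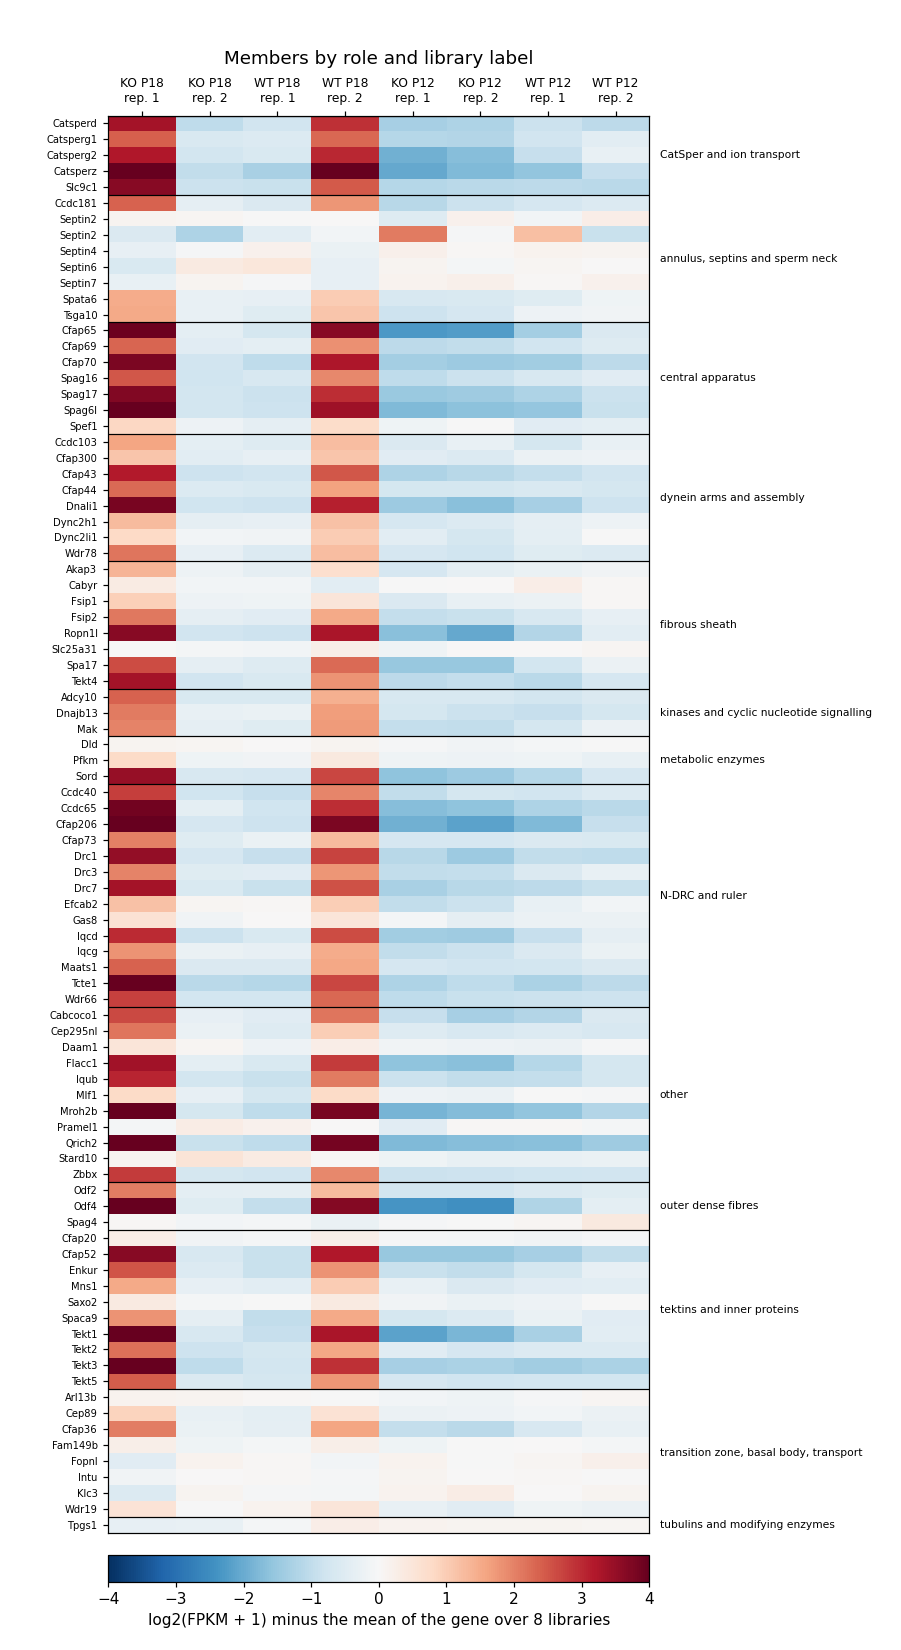
log2(FPKM + 1) of each member minus its mean over the 8 libraries, with 89 rows grouped by role and libraries in columns by label; red is above and blue below the mean of that gene. The columns KO P18 replicate 1 and WT P18 replicate 2 are red for the members that are above all other libraries there, and the septins, Fopnl, Intu and Klc3 are not.

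The promoters of the members, those that moved together and the exceptions alike, were read for motifs. A RefSeq window (GRCm38.p6) from 250 bases before to 50 after the start site was found for 73 of 90 members and 11231 of 16702 genes tested. Searched on both strands were the X-box, the binding motif of RFX factors in ciliary genes, a short form of one arm of it, GTTGCC, and the cAMP response element TGACGTCA. A full X-box on one strand can hold the short form on the other, so these matches overlap. The full X-box was found for 1 member, Cfap44 (1.37%, against 0.445% of genes tested). The short form was found for 25 members (34.2%, against 14.9%), and the cAMP response element for 3, Mlf1, Spag4 and Spag6l (4.11%, against 3.41%). Windows are shown for Cfap44, which has the full X-box, for Tekt1, which has 2 short forms, and for Ropn1l, the fibrous sheath member with the highest level, with matches in capitals. They lie at chr16:44394549-44394848 on the plus strand, chr11:72361833-72362132 on the minus strand and chr15:31453640-31453939 on the minus strand, in that order.
Cfap44: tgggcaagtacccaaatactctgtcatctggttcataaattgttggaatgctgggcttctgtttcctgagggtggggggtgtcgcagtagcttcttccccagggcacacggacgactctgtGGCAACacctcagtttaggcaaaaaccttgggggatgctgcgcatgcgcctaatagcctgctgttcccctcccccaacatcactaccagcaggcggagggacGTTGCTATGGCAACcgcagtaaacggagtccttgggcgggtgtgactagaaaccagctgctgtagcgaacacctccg
Tekt1: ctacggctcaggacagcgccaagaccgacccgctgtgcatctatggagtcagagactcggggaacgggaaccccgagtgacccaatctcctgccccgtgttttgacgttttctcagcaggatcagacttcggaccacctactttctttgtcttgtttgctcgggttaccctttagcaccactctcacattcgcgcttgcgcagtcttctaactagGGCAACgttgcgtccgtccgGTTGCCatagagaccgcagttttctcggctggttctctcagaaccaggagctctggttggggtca
Ropn1l: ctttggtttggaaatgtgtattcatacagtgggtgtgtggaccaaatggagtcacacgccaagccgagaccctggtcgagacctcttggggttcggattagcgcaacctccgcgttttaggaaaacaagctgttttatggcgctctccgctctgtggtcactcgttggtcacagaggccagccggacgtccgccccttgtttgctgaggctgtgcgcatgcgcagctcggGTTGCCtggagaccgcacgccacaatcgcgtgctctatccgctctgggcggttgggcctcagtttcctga
In Cfap44 the full X-box covers chr16:44394772-44394785, and another short form lies further upstream. In several other members the letters after GTTGCC also resembled one another, and 5 were picked for this likeness. In others, such as Enkur and Klc3, these letters differed, and like and unlike cases were not counted. The 5 are set side by side to show the bases around the match, again with the match in capitals.
Spag16: ggcaacgcGTTGCCgtagtaac
Iqcg: cgcgacgcGTTGCCatagctac
Mlf1: ttacagagGTTGCCatagcagc
Spaca9: gtgaccggGTTGCCatagcacc
Ccdc181: ggcgcgctGTTGCCatggcacc
These matches are descriptions of letters in a window. Of 19 tested regulators of ciliary and postmeiotic transcription, only Rfx2, an RFX factor of male germ cells, is described here. It was at 34.4 and 3.49 FPKM in KO P18 and 3.29 and 23.5 FPKM in WT P18. At P12 it was at 1.34 and 1.26 FPKM in KO and 2.07 and 2.82 FPKM in WT. This is the order of libraries seen in most members, and 25.6% of all genes tested also had it. Rfx2 was picked from the 19, and how many of the others share this order is not given here. The part of Rfx2 in the levels of the members was not tested.

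KO and WT testis at P12, where Alkbh5 was low in both KO libraries, were compared first. Most tail genes had lower values in KO testis, but none passed the main test. With edgeR's quasi-likelihood test on the 4 P12 libraries, 0 of 90 members had an adjusted p under 0.05 (Benjamini-Hochberg over 16702 genes), where 0.0539% of all genes did. At an unadjusted p under 0.05 there were 37 members, 36 lower in KO and 1 higher (Spef1), against 13.6% of all genes, 8.27% lower and 5.32% higher. DESeq2 called 25 members, all lower, against 3.95% of all genes, 3.24% lower and 0.707% higher, and limma on log2(FPKM + 1) called 0. Both KO libraries were below both WT libraries in FPKM for 54 of 90 members, against 24% of all genes, and above for 3 (Spef1, Klc3 and Tpgs1), against 21.3%. The median log2 difference (KO minus WT) was -0.40 over the members and 0.01 over all genes tested, and 72 members had a negative difference.

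The members with the lowest p in edgeR were Cfap65, with a log2 difference of -2.78 ± 0.37 (SE, n = 2 libraries a group, adjusted p = 0.0703), and Odf4, with -4.63 ± 0.63 and the same adjusted p in edgeR. Odf4 rested on 11 and 4 counts in KO P12 and 113 and 254 counts in WT P12. Catsperg2 differed by -2.39 ± 0.34 and Efcab2, a regulatory complex subunit, by -0.83 ± 0.12, both with an adjusted p of 0.0703 in edgeR. Efcab2 was at 4.28 and 4.77 FPKM in KO P12, against 7.52 and 8.78 FPKM in WT P12, so a well-expressed gene was among them. Flacc1, a flagellum-associated protein, differed by -3.56 ± 0.51 (adjusted p = 0.0703 in edgeR) and was at 0.0796 and 0.0448 FPKM in KO P12, against 0.505 and 1.03 FPKM in WT P12.

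DESeq2 called these 5 genes lower, with an adjusted p of 2.1e-16 for Cfap65 and 1.5e-06 for Efcab2. By role, DESeq2 called lower 5 of 7 central apparatus members, 5 of 14 of the regulatory complex and 3 of 8 of the fibrous sheath. It also called lower 2 of 5 of CatSper and ion transport and 1 of 10 tektins and inner proteins. Over all genes tested it called 3.24% lower. The central apparatus calls were Cfap65, Cfap69, Spag16, Spag17 and Spag6l, and its 2 members not called were Cfap70, with -0.49 ± 0.33, and Spef1, with 0.41 ± 0.13 (edgeR log2 difference ± SE). In the fibrous sheath they were Fsip2 (-1.82 ± 0.32), Ropn1l (-1.24 ± 0.30) and Spa17 (-1.21 ± 0.23), and all 8 members had a negative difference. Calls in the list of the regulatory complex and ruler were Efcab2, Drc3 (-0.73 ± 0.16), Iqcg (-0.65 ± 0.15), Cfap206 (-1.70 ± 0.55) and Iqcd (-1.54 ± 0.38). No septin was called, and Septin7 differed by 0.08 ± 0.07 on the log2 scale.

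The 21 members that passed the FPKM limit only through 2 P18 libraries were low at P12. Of the 57 members with a mean of at least 1 FPKM at P12, DESeq2 called 17 lower (29.8%), against 3.04% of 14551 genes chosen in the same way, and edgeR 0. Cfap73 had 0 counts in both KO P12 libraries and 4 and 3 counts in WT P12, and no fold is given for it. With that gene placed at the bound that a floor of 3 counts per library allows, the median over the members was -0.39. Other genes of the same structures, from lists that hold no member, were also counted. Of 17 further central apparatus genes, 14 had a negative difference and DESeq2 called 6 lower, and of 26 further dynein arm and assembly genes 21 were negative with 5 called lower. Among 37 further kinase and signalling genes 18 were negative in edgeR and DESeq2 called 2. Over all genes tested, DESeq2 called 3.95%, 3.24% lower and 0.707% higher, and the median log2 difference in edgeR was 0.01.

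The spermatocyte markers moved with the tail genes at P12. Of 8 pachytene and diplotene markers 7 had a negative difference and 5 were called lower by DESeq2, with the sums given above lower in both KO libraries. All 8 Sertoli markers had a positive difference and DESeq2 called 3 higher. Of all genes tested, DESeq2 called 3.24% lower and 0.707% higher. The part of stage or cell composition in the differences of the tail genes was not tested. The calls and the size of the difference also depend on single libraries, and leaving 1 out leaves 1 in its group. The median log2 difference over the members in edgeR was -0.59 without WT P12 replicate 1 and -0.31 without WT P12 replicate 2. It was -0.47 without KO P12 replicate 1 and -0.52 without KO P12 replicate 2. WT P12 replicate 2 was the higher of the WT libraries for 68 of 90 members.

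**Figure D3:**
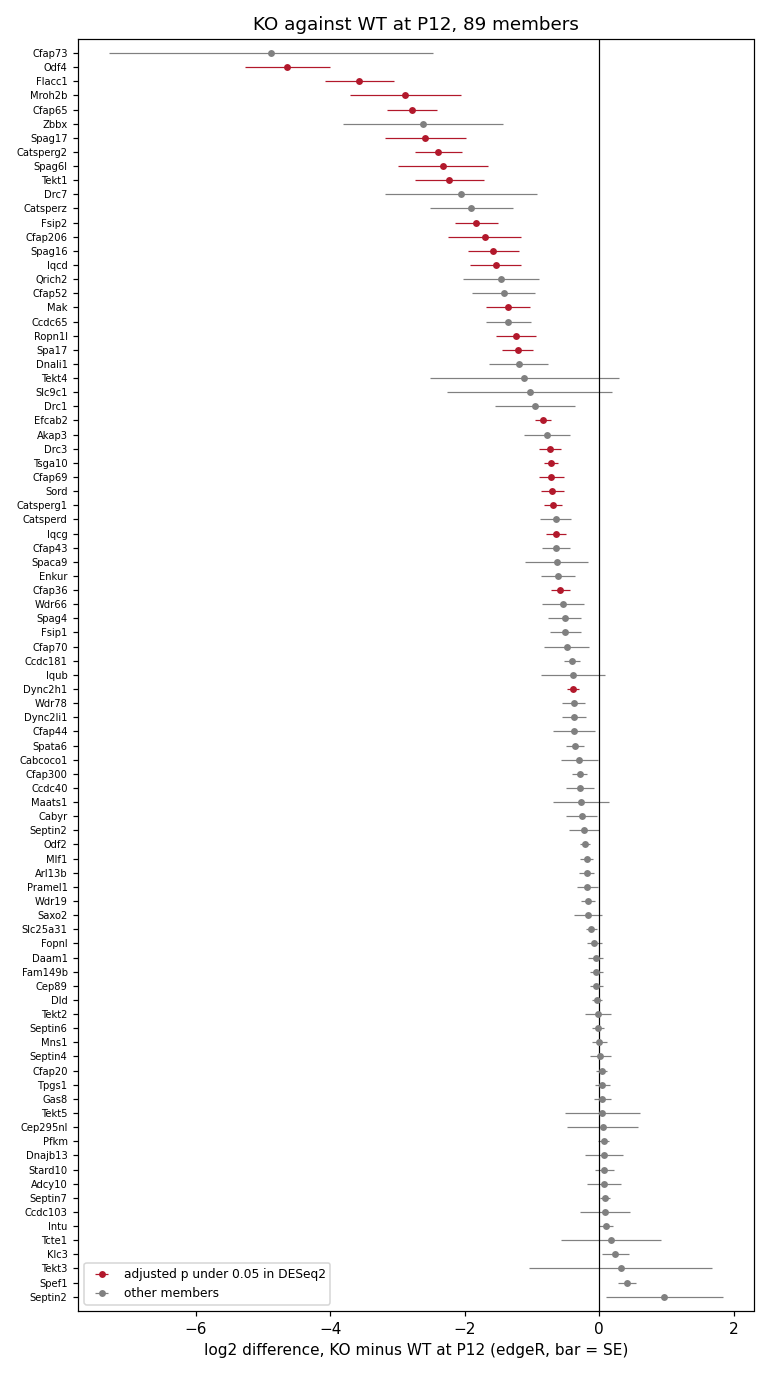
log2 difference between KO and WT at P12 for 89 members from edgeR (x axis, bar = SE, 2 libraries a group), sorted by size, with the 24 of them called by DESeq2 in red. The red points all lie below 0, from -0.39 for Dync2h1 to -4.63 for Odf4, and Cfap73 at the far end has no counts in KO libraries.

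**Figure D4:**
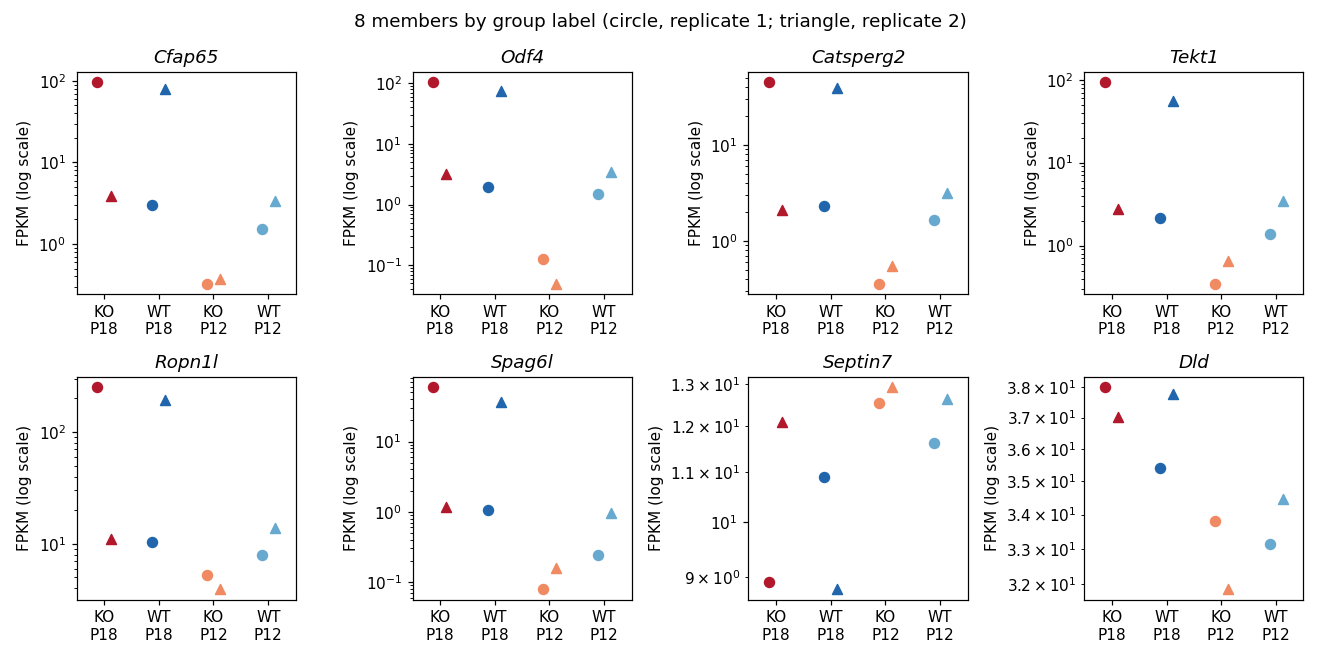
FPKM on a log axis for 8 members by group label, with circles for replicate 1 and triangles for replicate 2. In Cfap65, Odf4, Catsperg2, Tekt1, Ropn1l and Spag6l the KO P12 libraries are the lowest and KO P18 replicate 1 and WT P18 replicate 2 the highest, while Septin7 is lowest in those 2 libraries in FPKM, though not in CPM, and Dld spans 31.9 to 38.0 FPKM.

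No tail gene passed the test between KO and WT testis at P18 as labelled. EdgeR called 0 of 90 members (0% of all genes), 0 at an unadjusted p under 0.05 (1.13% of all genes), and DESeq2 (0.455% of all genes) and limma also called 0. The lowest p was that of Cabyr, with a log2 difference of 0.89 ± 0.46 (SE, n = 2 libraries a group, adjusted p = 1 in edgeR). The libraries of each group differed far more than the groups, as for Ropn1l at 252 and 11.0 FPKM in KO P18 and 10.5 and 194 FPKM in WT P18.

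Without KO P18 replicate 1 and WT P18 replicate 1, the 2 libraries whose Alkbh5 goes against the label, the same comparison gave lower tail genes in KO. EdgeR then called 75 members, against 38.1% of all genes: 73 were lower, where 22.4% of all genes were, and 2 higher, where 15.6% were. DESeq2 called 73 members on the same libraries (38.9% of all genes), 71 lower (22.3%) and 2 higher (16.6%). The FPKM limit favours such calls, since 20 of the 21 members that passed it only through the high P18 libraries were among those lower in edgeR, so these counts describe the list and are no support for its direction. Of the 57 members chosen at P12, edgeR called 41 lower, against 18.3% of genes chosen in the same way. A single P18 library was left per genotype, assumed to vary like the P12 libraries, so the calls carry no P18 replicate check. The median log2 difference was -2.74 over the members and 0.02 over all genes. Tcte1 differed by -6.35 ± 0.84, Odf4 by -4.67 ± 0.56 and Ropn1l by -4.28 ± 0.41 (SE, adjusted p from 0.00154 for Ropn1l to 0.00387 for Tcte1 in edgeR). Lower were all 14 members of the regulatory complex, all 7 of the central apparatus, all 8 of the dynein arm list and all 5 of CatSper and ion transport, against 5 of 9 of the transition zone, the gate at the base of the cilium, and basal body. The 2 higher members were Septin6, by 0.58 ± 0.13, and Septin7, by 0.31 ± 0.10. Beside these values, pachytene markers summed to 99.5 FPKM in the KO and 1430 FPKM in the WT library left, and Alb was at 111 and 0.169 FPKM; their part in the result was not tested.

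The change from P12 to P18 in WT testis was large in WT P18 replicate 2 and small in replicate 1. As labelled, edgeR called 0 members (0% of all genes), 2 at an unadjusted p under 0.05 (6.48% of all genes), DESeq2 called 2 (2.44%) and limma 0. Relative to the WT P12 mean, the median member was 1.05-fold in WT P18 replicate 1 and 6.54-fold in WT P18 replicate 2. Without the 2 libraries that go against their labels, edgeR called 79 members, against 44.9% of all genes. Of these 77 were higher at P18, where 26.4% of all genes were, and 2 lower, where 18.6% were: Septin7 (-0.28 ± 0.09) and Cabyr (-1.02 ± 0.33). DESeq2 called 76 members on the same libraries (44.9% of all genes), 75 higher (26.2%) and 1 lower (18.7%). All 21 members that passed the limit only through the high P18 libraries were among the higher in edgeR, and of the 57 chosen at P12 it called 44 higher, against 21.3% of genes chosen in the same way. The largest rises among members were in Tekt3, with a log2 difference of 8.85 ± 0.78, Slc9c1 with 8.07 ± 0.67 and Qrich2, a protein of the sperm flagellum, with 7.83 ± 0.44 (adjusted p at or below 0.000589 in edgeR). Odf2, which was above 10 FPKM in every library, rose by 2.03 ± 0.08. All 14 members of the regulatory complex, all 10 tektins and inner proteins and all 7 of the central apparatus rose, against 3 of 8 in the list of septins and sperm neck.

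In KO testis the same change was large in replicate 1 and small in replicate 2. As labelled, edgeR called 0 members (0% of all genes), 44 at an unadjusted p under 0.05 (19% of all genes), DESeq2 called 57 (14.3%) and limma 0. Relative to the KO P12 mean, the median member was 1.59-fold in KO P18 replicate 2, over 89 members with a KO P12 level above 0. Without the 2 libraries, edgeR called 28 members (10.8% of all genes), all higher, where 7.08% of all genes were higher and 3.74% lower. DESeq2 called 41 on the same libraries (18.2% of all genes), all higher, where 11.8% were higher and 6.35% lower. Of the 57 members chosen at P12 edgeR called 16 higher, against 5.7% of genes chosen in the same way. All 28 were among the 77 that rose in WT. The largest of those with counts in every library were Odf4 (5.02 ± 0.63), Flacc1 (4.55 ± 0.48) and Mroh2b (4.43 ± 0.73). Cfap65 rose by 3.49 ± 0.43 in KO and by 5.22 ± 0.40 in WT, and Odf4 by 5.07 ± 0.43 in WT. Efcab2 rose by 1.18 ± 0.13 in KO and by 1.46 ± 0.13 in WT.

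The interaction, the change from P12 to P18 in KO less that in WT, was called for 0 members as labelled by edgeR (0% of all genes), DESeq2 (0.269%) and limma, with 0 at an unadjusted p under 0.05 in edgeR (0.958% of all genes). Without the 2 libraries, edgeR called it for 49 members (13.8% of all genes), all below 0, where 11.1% of all genes were below and 2.68% above. DESeq2 called 54 (21.9% of all genes), 53 below 0 (14.5%) and 1 above (7.38%). Of the 49, 11 had passed the limit only through the high P18 libraries, and of the 57 members chosen at P12 edgeR called 30 below 0, against 10% of genes chosen in the same way. The same 2 P18 libraries enter this and the comparisons before it, so the counts are not independent of one another. The level of most tail genes in the single KO P18 library left was near that of WT testis at P12, with a median ratio of 1.13 to the WT P12 mean.

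**Figure D5:**
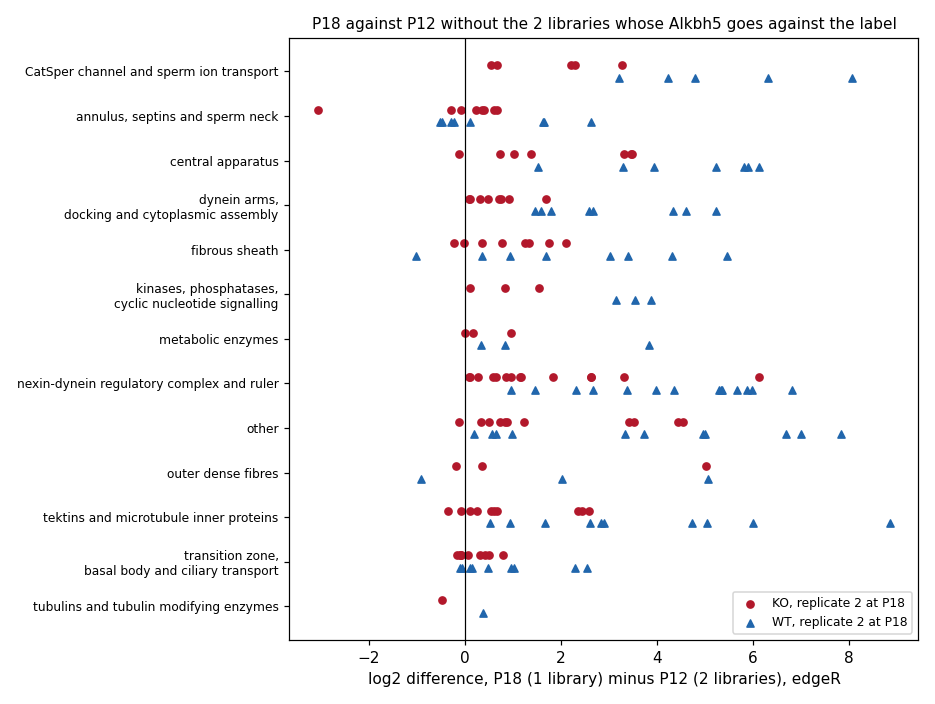
log2 difference between P18 (1 library) and P12 (2 libraries) for each member by role, from edgeR without KO P18 replicate 1 and WT P18 replicate 1; red circles are KO and blue triangles WT. The medians over members are 0.67 in KO and 2.87 in WT, and the list of septins and sperm neck has medians of 0.30 in KO and -0.05 in WT.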

How the data were processed

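RNA-seq was done on 8 testis libraries, 2 in each of 4 groups. The build GRCm38 and the tools StringTie 2.1.6, HISAT2 2.2.1 and cutadapt 1.9 are listed in the submitters' processing notes. The authors' table gives a deposited count and a deposited FPKM per gene and library; how reads were counted, and whether strand was used, is not given in the sources used here, so overlapping and antisense genes are uncertain. Levels are FPKM. Deposited counts were tested for the 16702 genes that reached 1 FPKM in 2 or more libraries. The test was edgeR's quasi-likelihood F-test after TMM scaling (edgeR 4.0.16 in R 4.3.3), two-sided, with Benjamini-Hochberg adjustment over all genes and a threshold of 0.05. The P12 comparison used the 4 P12 libraries, the other comparisons all 8. SE is the size of the log2 difference over the square root of F. DESeq2 1.42.0, limma 3.58.1 with a pseudocount of 1 or 0.1 and the fit without 2 P18 libraries are alternatives. The edgeR fit was run on simulated counts with a spread between libraries set near that of the P12 fit (common dispersion 0.0179). The fit of all 8 libraries had a common dispersion of 0.226, so that run does not describe the comparisons with P18.

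Members, role lists and marker lists were chosen with earlier results of these data known, and some roles were given to members after the table was read. Each member has a single role, so some lists are mixed. Tekt4 was listed with the fibrous sheath and not with the tektins, and Dnajb13 with the signalling enzymes. Named were Alkbh5; in each role the members with the highest mean FPKM; in each comparison the members with the lowest p; the highest at P12; members whose highest libraries are not P18; and those nearest the FPKM limit. Others, such as Tekt3, Slc9c1 and Septin6, were chosen after their values were seen, as were the promoters shown, from RefSeq tables of GRCm38.p6. Values of 1 member are not reported here; it stays in the counts and tests but not in the plots that name genes.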

Additional observations from a re-analysis of the deposited data

Results flagged for a closer look

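In 2 of 90 members (against 1.93% of all genes tested) the KO and WT libraries separated in opposite directions at the 2 ages, which is what brought them here. Arl13b, a small GTPase of the ciliary membrane, was at 5.69 and 5.61 FPKM in KO P18, above 5.26 and 5.05 FPKM in WT P18, and at 4.64 and 4.38 FPKM in KO P12, below 4.87 and 5.50 FPKM in WT P12. Its interaction, the change from P12 to P18 in KO less that in WT, was 0.41 ± 0.26 on the log2 scale (SE, adjusted p = 1 in edgeR) as labelled, and 0.18 ± 0.19 (adjusted p = 0.563 in edgeR) without the 2 P18 libraries that go against their labels. Tpgs1, a subunit of the tubulin polyglutamylase complex, was at 9.23 and 9.30 FPKM in KO P18, below 11.1 and 14.4 FPKM in WT P18, and at 13.1 and 12.7 FPKM in KO P12, above 12.6 FPKM in both WT P12 libraries. Its interaction was -0.43 ± 0.33 on the log2 scale (SE, adjusted p = 1 in edgeR) as labelled. It was -0.84 ± 0.19 without those 2 libraries, a fit that holds 1 P18 library per genotype. Both genes were chosen by the order of the same libraries that the interaction uses, so their interactions are no independent support. The share of members with such an order was close to that of all genes. The separation of the libraries itself was not tested.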

How the results depend on the processing

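At P12, against 0 members called in the edgeR fit, DESeq2 called 25, a filter on a mean of at least 1 FPKM called 6 and a filter on the P12 libraries alone, added after the data were seen, called 5, while leaving out single libraries gave 0 to 16. Calls over all genes at P12 were 9 in the edgeR fit, 659 in DESeq2, 65 of 15258 with the mean filter and 63 of 14802 with the P12 filter. Leaving out single libraries gave 6 to 207, the 207 in the fit without WT P12 replicate 1, which called 16 members. There were 0 without a filter and 0 with all 8 libraries in one fit, where the shared spread includes P18. With the replicate number as a block, 22 members and 439 genes were called at P12 and no member in the other comparisons. The numbers do not pair the samples: replicate differences of KO and WT correlated at -0.0045 across genes at P12 and at -0.912 at P18, and the crossed pairing at P18, added after the data were seen, called 89 genes and 0 members. Without the 2 P18 libraries that go against their labels, members called were 75 between genotypes at P18 (73 in DESeq2), 28 with age in KO (41), 79 with age in WT (76) and 49 in the interaction (54). With all 8 libraries DESeq2 called 57 with age in KO and 2 with age in WT. Without those 2 libraries, the KO and WT difference at P18 turned round for Ropn1l to -4.28 (-4.29 in DESeq2), for Odf4 to -4.67 (-4.68) and for Tcte1 to -6.35 (-6.37). Leaving out single libraries gave -3.35 to 3.97 for Ropn1l, -3.70 to 5.08 for Odf4 and -5.37 to 7.37 for Tcte1. The difference of Septin6 turned to 0.58 (0.56 in DESeq2), and to between -0.48 and 0.28 with single libraries left out. The age difference of Odf4 in WT was between -0.26, without WT P18 replicate 2, and 5.07. With TMM-scaled CPM in place of FPKM, the order of libraries was counted again. KO P18 replicate 1 and WT P18 replicate 2 stood above the other 6 libraries for 76 members and below for 2. Both KO P12 libraries were below both WT P12 libraries for 52 members and above for 5. The shares over all genes were not counted in CPM, so these counts have no background to be read against. The cause of these changes was not tested. The part of depth and of the number of libraries in these counts of calls was not tested.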
